A study of Mus musculus with 16 samples.

Results

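The livers described here carried no functional Lcn2, and the comparison is between 4 Lcn2-/- samples treated with CCl4 and 3 Lcn2-/- control samples, 7 of the 16 arrays of the series, picked by their titles alone. All were total liver RNA from male BALB/c mice that were 6 to 8 weeks old when treatment began, hybridised singly to 1-colour Agilent mouse expression arrays. CCl4 diluted in corn oil was injected intraperitoneally at 0.5 ml/kg, 2 times a week for 4 weeks, with death 48 h after the last dose, and the controls received corn oil for the same 4 weeks. The knockout is constitutive in every cell, made on another background and crossed back to BALB/c, so both groups lack Lcn2 alike and flanking DNA of the founder strains may remain. The other 9 arrays, 4 WT control and 5 WT CCl4, enter here only as the reference for a difference between genotypes and through the shared estimate of spread. The labels do not say that each array is a separate animal, so a p-value measures the spread between these samples.

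CCl4 is a solvent that becomes toxic in the liver once cytochrome P450, chiefly CYP2E1 in the hepatocytes around the central vein, turns it into a radical. Repeated doses kill those hepatocytes, draw in macrophages that clear the debris, and activate hepatic stellate cells, which then lay down collagen. Lcn2 encodes lipocalin 2, a secreted protein of hepatocytes and neutrophils that binds bacterial siderophores and is known as an acute phase marker of liver injury.

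Signal was well above background at 51.6 to 52.4% of the gene spots on the control arrays and at 52.3 to 55.9% on the CCl4 arrays, and no gene spot was saturated. The number of arrays limits the precision, and the median standard error of a difference was 0.22 on the log2 scale. All 3 control arrays lay on slide 1 and all 4 CCl4 arrays on slide 2, so treatment and slide cannot be told apart in this comparison. Along the axis from the mean of the other controls (0) to the mean of the other CCl4 arrays (1), Lcn2-/- control 3 had a median position of 0.364 over 1942 genes, against -0.00178 and 0.0167 for controls 1 and 2 and 0.859 to 1.01 for the CCl4 arrays. Control 3 also held the highest of the 7 values for 37 of 42 interferon-stimulated genes and for 16 of 21 Kupffer cell genes. The same held for 15 of 26 class II, 13 of 28 neutrophil, 7 of 41 mitosis and 3 of 29 lipid-associated and scar macrophage genes. Only these lists were counted, and the share over all genes was not. Results that changed most without control 3 are given that way as well. In the top 20 of the 384 spot rows, the dimmest control spots read a median of 66.0 to 88.6 on the 3 Lcn2-/- control arrays and 41.7 to 57.6 on the 4 Lcn2-/- CCl4 arrays, against 51.9 to 53.8 and 40.4 to 51.6 in the other rows, which covers the probes of Acta2, Afp, Avpr1a, Cd34, Cd74, Col4a1, Cyp39a1, Dpt, Egr2, Il1b, Isg15, Nqo1, Tgfb3 and Vsig4 among the genes below, beside those named with their rows.

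The deleted gene was looked at first. The Lcn2 probe, on chromosome 2 at 32240199-32240258 of the mm9 build, gave log2 signals of 10.46, 11.04 and 11.53 on the control arrays and 12.25, 10.60, 11.59 and 11.80 on the CCl4 arrays, and it was well above background on all 7. The groups overlapped, and the difference of 0.55 ± 0.76 (SE) had an adjusted p of 0.692. On the 9 WT arrays the same probe read from 13.80 to 17.57, above every Lcn2-/- array. Whether the probe lies in the part that was deleted is not given in the sources used here, so a remaining signal neither checks nor contradicts the label.

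A total of 2958 of 24357 genes differed between Lcn2-/- CCl4 and Lcn2-/- control livers in limma's moderated test at a Benjamini-Hochberg adjusted p under 0.05, 12.1% of those tested. Of these, 1598 (6.56%) were higher after CCl4 and 1360 (5.58%) lower, and 1601 (6.57%) changed at least 2-fold, 1048 upward and 553 downward. With each array scaled to its 75th percentile in place of quantile normalization, the median of all genes moved by -0.118 and the calls split into 1181 higher and 2055 lower, so the balance between directions, 54.0% higher here and 36.5% there, follows the scaling. Values below are log2 signals after quantile normalization, differences are log2 CCl4 minus control with the SE of the fit, and a difference of 1 is a doubling. The 4 CCl4 arrays lay above all 3 controls for 12.1% of the genes tested and below them for 12.7%. Without control 3 the calls numbered 3009, without control 1 they numbered 1676 and without control 2 1671. With slide as a block, where a single WT CCl4 array separates slide from treatment, 426 genes were called, 357 of them among the 2958 and all 357 with the same sign.

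**Figure D1:**
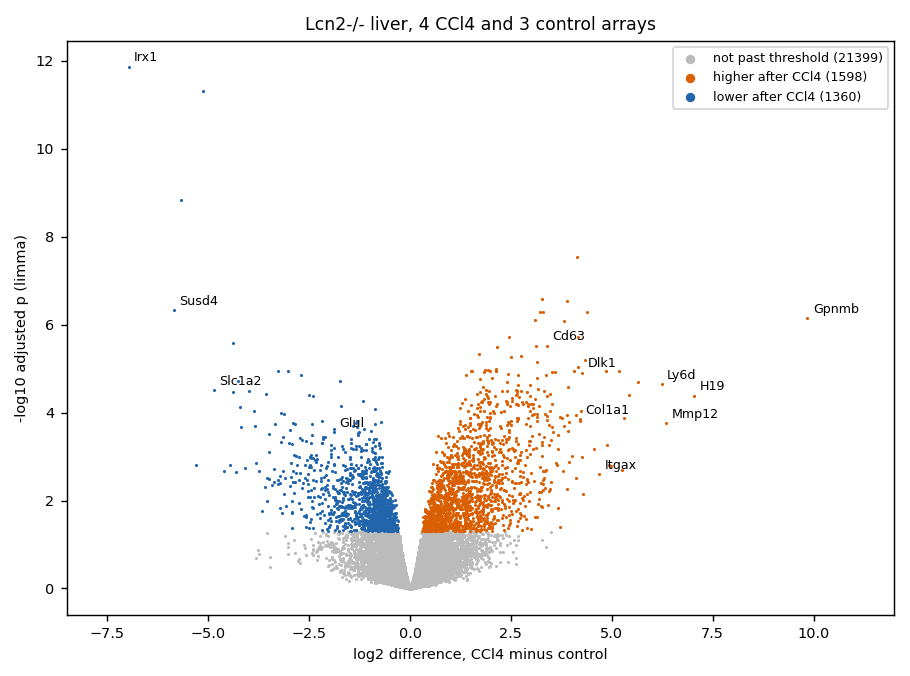
Difference between Lcn2-/- CCl4 and Lcn2-/- control livers for the 24357 genes tested. The x axis is the log2 difference, the y axis is -log10 of the adjusted p from limma, grey points are genes not past the threshold, coloured points the 1598 higher and 1360 lower genes, and the leading genes are named. Gpnmb, H19 and Mmp12 lie far to the right, and Irx1 and Susd4 far to the left.

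The largest rise was that of Gpnmb, a transmembrane glycoprotein of phagocytic macrophages, which read 5.14, 3.23 and 3.000 on the control arrays and 13.02, 14.85, 13.59 and 13.08 on the CCl4 arrays. It was not well above background on any control array, so its rise is a bound of at least 277-fold (adjusted p = 7.02e-07). Mmp12, the macrophage elastase, was at 3.15, 4.08 and 4.15 on the control arrays and 8.78, 11.79, 10.57 and 9.44 on the CCl4 arrays, at least 24.6-fold higher (adjusted p = 0.000174); of its 2 probes tested 1 passed the threshold. H19, an imprinted long noncoding RNA of the fetal liver, rose from 6.77, 5.75 and 6.29 on the controls to 15.09, 13.31, 13.20 and 11.61, a difference of 7.03 ± 0.73 (adjusted p = 4.09e-05) that all 6 of its probes tested showed. Every CCl4 array stood above every control array for these 3 genes, which the choice of the leading genes required. Ly6d, a GPI-anchored surface protein, rose by 6.23 ± 0.60 (adjusted p = 2.29e-05), from 7.48, 7.57 and 8.51 to 14.996, 13.69, 14.12 and 13.55.

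Several genes that were near or under the background in control livers became measurable after CCl4. Tinag, a basement membrane protein, rose at least 41.5-fold, Gipc2 at least 18.9-fold and Il7r, the interleukin 7 receptor, at least 8.13-fold. Thbs4, a matrix thrombospondin, was on the lowest measured level on the 3 controls and read 6.11, 11.62, 8.42 and 6.58 after CCl4, at least 6.34-fold higher (adjusted p = 0.00204) with the widest spread of these genes. That p uses the spread shared by the 4 groups, and the SD was 0.011 on the controls at the floor against 2.50 on the CCl4 arrays. Of the hydroxysteroid sulfotransferases, Sult2a1 rose at least 6.57-fold, Sult2a2 at least 10.5-fold and Sult2a6 at least 3.94-fold; their sequences are close, so one probe may read its neighbours. Cyp4a14, a fatty acid omega-hydroxylase, rose by 5.42 ± 0.56, Scube1 by 4.89 ± 0.71, the actin-bundling gene Espn by 4.87 ± 0.42 and Itgax, which encodes CD11c, by 4.69 ± 0.85. The probe chosen for Espn lies in row 20 of the array, and its second probe was also called.

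Among the falls, the transcription factor gene Irx1 went from 9.94, 10.01 and 9.61 on the controls to the lowest measured level on all 4 CCl4 arrays, at least 25.6-fold lower (adjusted p = 1.36e-12). Its p likewise uses the shared spread, with an SD of 0.0056 on the CCl4 arrays at the floor and 0.21 on the controls. Susd4, a complement regulator, fell by 5.86 ± 0.36, from 15.41, 15.47 and 15.15 to 9.81, 9.41, 10.08 and 8.63 (adjusted p = 4.65e-07). Slc1a2, the glutamate transporter of the pericentral hepatocytes, fell by 4.86 ± 0.48 on the probe used and on all 3 probes tested. The groups were fully separate for these 3 genes, which the choice of the leading genes required as well. Fitm1, a lipid droplet gene, fell by 4.38 ± 0.44, Obp2a by 4.61 ± 0.81 and the potassium channel gene Kcnk1 by 4.47 ± 0.75. Moxd1 was at 11.06, 11.18 and 7.12 on the controls and not well above background after CCl4, at least 24.5-fold lower, with control 3 nearest the treated arrays. Dynlrb2 fell at least 7.12-fold, Wif1, a secreted Wnt inhibitor, at least 4.74-fold and Capn8, read from row 14, at least 3.5-fold.

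A further 5 of the 15 largest falls were read from spots in rows 4 to 7 of the array, where the dim control spots were raised on the Lcn2-/- control arrays. These are Olfr1317, at least 7.23-fold, Ceacam12, at least 4.39-fold, Riiad1, at least 7.58-fold, Tas2r136, which fell by 4.32 ± 0.77, and Kcna10, which fell by 3.82 ± 0.63. None of these 5 probes was well above background on any of the 9 WT arrays, so their SEs draw on WT groups at the floor. For Tas2r136 the SD was 0.96 on the Lcn2-/- controls and 2.03 on the Lcn2-/- CCl4 arrays, against 0.021 on WT control and 0.036 on WT CCl4 arrays. Of the called genes, 84 of the higher and 83 of the lower were read from the top 20 rows, and leaving those probes out gave 2829 calls.

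**Figure D2:**
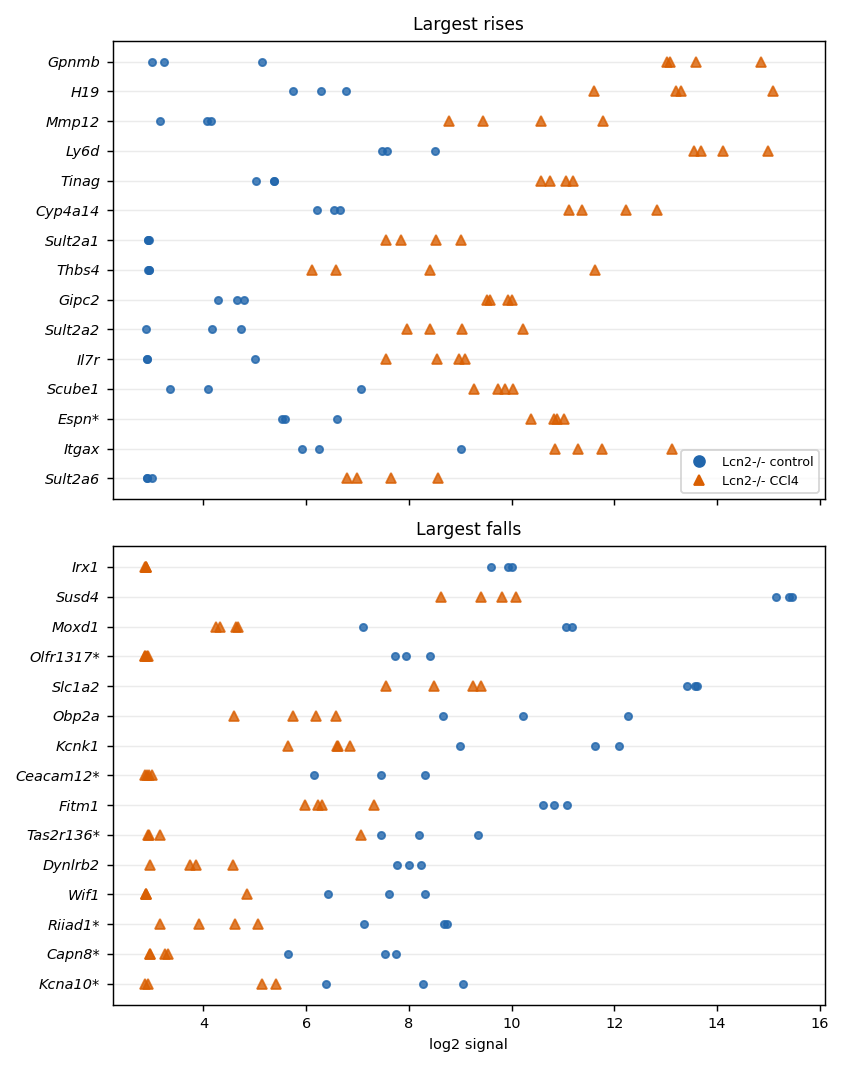
Log2 signal of the leading genes on each array of Lcn2-/- liver, blue circles for the 3 controls and orange triangles for the 4 CCl4 arrays. Rises are in the upper panel and falls in the lower one, and genes read from the top 20 rows carry an asterisk. In every row the triangles and circles are on opposite sides, because only genes without overlap between the groups were taken.

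Collagen is secreted as procollagen, trimmed, cross-linked by lysyl oxidases and remodelled by matrix metalloproteases, and the members are taken in about that order. Of 9 fibrillar collagen genes tested, 4 rose (44.4%, against 6.56% of all genes), with a median difference of 1.42 over the 9 against -0.02 over all genes. Col1a1, the main chain of scar collagen, read 10.67, 10.33 and 10.47 on the control arrays and 14.37, 15.25, 14.79 and 14.39 on the CCl4 arrays and rose by 4.21 ± 0.51 (adjusted p = 0.00014). Its partner chain Col1a2 went from 12.77, 12.48 and 12.60 to 15.37, 16.21, 15.78 and 15.03, a rise of 2.98 ± 0.46, and Col3a1 from 12.27, 12.04 and 12.15 to 15.22, 15.64, 15.16 and 15.38, a rise of 3.20 ± 0.36. All 4 treated livers stood above all controls for these chains, and the controls lay close to each other. Col5a1 was the other member to rise, by 1.67 ± 0.20. Among 21 other collagens, 8 rose (38.1%) and 1 fell, or 2 fell without control 3 (median 0.78). The basement membrane chain Col4a5 rose by 3.27 ± 0.19 and Col4a1 by 1.81 ± 0.27, while Col4a6 fell by 0.94 ± 0.19. The microfibrillar chains Col6a1 and Col6a2 rose by 2.66 ± 0.29 and 2.63 ± 0.29, and Col18a1, which hepatocytes make, differed by 0.02 ± 0.11.

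Of 22 collagen processing enzymes, 11 rose (50%) and 1 fell (median 0.88). The cross-linking enzymes Loxl1 and Loxl2 rose by 3.18 ± 0.31 and 1.81 ± 0.31, the collagen chaperone Serpinh1 by 1.87 ± 0.24, the procollagen C-proteinase enhancer Pcolce by 1.17 ± 0.22 and the lysyl hydroxylase Plod2 by 1.62 ± 0.36. Lox itself differed by -0.36 ± 0.84 (adjusted p = 0.823) and was well above background on 1 control and 1 CCl4 array, and the prolyl hydroxylase P3h1 fell by 0.80 ± 0.21. In the group of 51 matrix glycoproteins, 31 rose and 1 fell, a share of 60.8% rising against 6.56% of all genes (median 1.19). Ltbp2, a microfibril-associated matrix protein, rose by 3.46 ± 0.40, Thbs2 by 3.0997 (0.20 SE), the elastic fibre gene Mfap4 by 2.90 ± 0.30, Thbs1 by 2.34 ± 0.48, Postn by 1.97 ± 0.17 and Sparc by 1.29 ± 0.25. Fn1, of which hepatocytes secrete the plasma form, differed by -0.11 ± 0.11, and Ecm1 fell by 0.76 ± 0.14. Of 17 proteoglycans, 3 rose (17.6%): Esm1, Lum by 2.53 ± 0.27 and Prelp. Decorin (Dcn) differed by 0.61 ± 0.20 (adjusted p = 0.0576) and biglycan (Bgn) by 1.11 ± 0.47 (adjusted p = 0.146).

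Matrix proteases and their inhibitors gave 13 rises (40.6%, against 6.56% of all genes) and 1 fall (3.12%, against 5.58%) among 32 genes (median 1.25). Mmp2, the gelatinase of stellate cells, read 7.41, 7.53 and 6.92 on the control arrays and 11.48, 12.06, 11.95 and 11.17 on the CCl4 arrays, a rise of 4.38 ± 0.28 (adjusted p = 5.2e-07). Plat, tissue plasminogen activator, rose at least 12.4-fold, Adam8 by 3.78 ± 0.67, the collagenase Mmp13 by 2.01 ± 0.37 and Mmp14 by 1.52 ± 0.29. Timp1, an inhibitor of these enzymes, was at 8.74, 8.42 and 8.31 on the control arrays and 8.93, 11.17, 10.05 and 9.87 on the CCl4 arrays; the groups did not overlap, but the difference of 1.51 ± 0.66 missed the threshold (adjusted p = 0.157), with CCl4 array 1 close to the controls. Serpine2 fell by 1.84 ± 0.43. Among 23 integrin genes, the cell receptors for matrix, 4 rose (17.4%): Itgax, Itga8 by 2.51 ± 0.20, Itga11 by 1.72 ± 0.32 and Itga3 by 0.63 ± 0.17; without control 3 the count was 6.

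**Figure D3:**
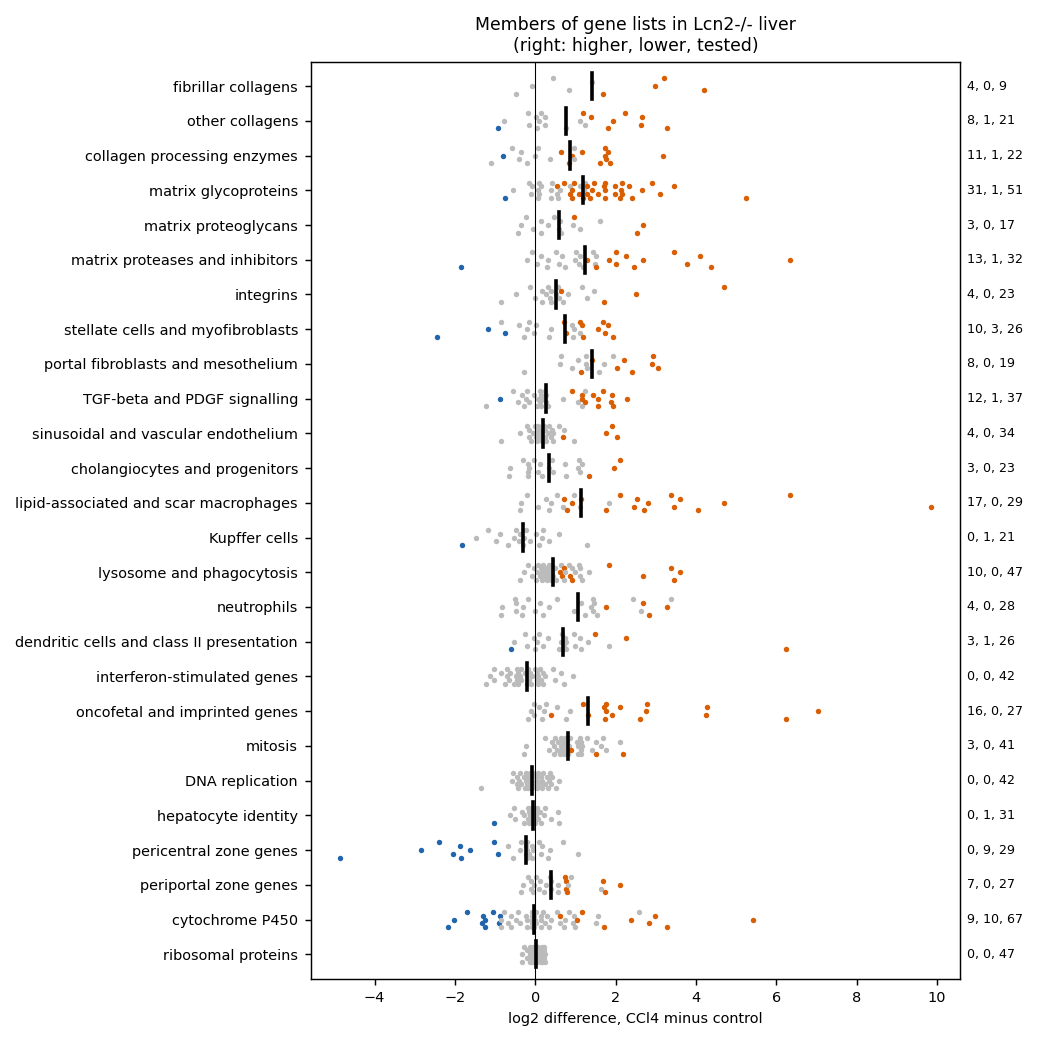
Log2 difference (CCl4 minus control, Lcn2-/- liver) of the members of 26 gene lists, 1 point per gene tested. Coloured points passed the adjusted threshold, the black bar is the list's median, and the numbers at the right are members higher, lower and tested. The medians of the matrix lists and of lipid-associated and scar macrophages lie to the right of 0, while hepatocyte identity, ribosomal and interferon lists centre near 0.

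Stellate cells and portal fibroblasts are known as matrix-making cells of injured liver, and which cells held the RNA was not measured here. In whole liver, more cells of a type and more RNA per cell cannot be told apart. Of 26 stellate cell and myofibroblast genes, 10 rose (38.5%, against 6.56% of all genes) and 3 fell (11.5%, against 5.58%). The median was 0.74, and without control 2 there were 6 rises. Pdgfrb, the PDGF receptor of stellate cells, rose from 10.09, 9.84 and 10.04 to 11.80, 12.47, 11.66 and 11.72, by 1.92 ± 0.20. The other defining markers gave 1.19 ± 0.28 for Reln, 1.17 ± 0.20 for the retinol-esterifying enzyme gene Lrat and 1.10 ± 0.31 for desmin (Des), all called. Acta2, smooth muscle actin of the contractile myofibroblast, read 9.32, 9.65 and 8.98 on the control arrays and 10.07, 9.79, 9.26 and 9.73 on the CCl4 arrays; the groups overlapped and the difference was 0.39 ± 0.49 (adjusted p = 0.657). Hhip, an antagonist of hedgehog ligands, fell by 2.45 ± 0.42. Of 19 portal fibroblast and mesothelial genes, 8 rose (42.1%, median 1.42), among them Wt1 by 3.05 ± 0.46, Dpt by 2.93 ± 0.32, Eln by 2.41 ± 0.24 and Cd34 by 2.03 ± 0.32. The defining markers Thy1 and Msln differed by 0.91 ± 0.51 and 0.63 ± 0.63 and did not pass (adjusted p = 0.269 and 0.557). The mean log2 level of these 19 genes ran from 8.48 to 8.64 on the controls and from 9.33 on CCl4 array 1 to 10.94 on CCl4 array 2, the widest spread among treated livers of the matrix-producing lists.

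Ligands and receptors of TGF-beta and PDGF signalling gave 12 rises (32.4%) and 1 fall among 37 genes. The ligands Tgfb3, Tgfb2 and Pdgfb rose by 2.29 ± 0.32, 1.45 ± 0.36 and 1.55 ± 0.24, whereas Tgfb1 differed by 0.70 ± 0.25 (adjusted p = 0.0799). The TGF-beta family member Gdf10 rose by 1.88 ± 0.19 and the hepatokine gene Inhbe fell by 0.87 ± 0.17. In the endothelin and vasoactive system, 6 of 28 genes rose (21.4%, against 6.56% of all genes) and 1 fell. Edn1, the vasoconstrictor ligand, rose at least 1.33-fold, its receptors Ednra by 0.81 ± 0.16 and Ednrb by 1.17 ± 0.18. The vasopressin receptor gene Avpr1a of pericentral hepatocytes fell by 1.62 ± 0.28. Without control 1 or without control 2, 3 genes of this system rose.

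Of 34 endothelial genes 4 rose (11.8%, against 6.56% of all genes), Lyve1 by 1.92 ± 0.50, Cd36 by 1.76 ± 0.47, Cd34 and Sox17, while the sinusoidal markers Stab1 and Stab2 and the pan-endothelial Pecam1 and Cdh5 differed by 0.09, -0.07, 0.23 and -0.39. Leaving out control 1 or control 2 gave 2 endothelial rises. Cholangiocyte and progenitor genes gave 3 rises among 23 (13%), in Spp1, Bicc1 (1.97 ± 0.24) and Anxa2, and 1 without control 2. Their keratins Krt7 and Krt19 lay above the controls on all CCl4 arrays, with differences of 1.11 ± 0.45 and 1.07 ± 0.48 that did not pass (adjusted p = 0.124 and 0.165).

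Resident Kupffer cells carry Clec4f, Timd4 and Vsig4, while macrophages recruited to injured or fat-laden tissue carry Trem2, Gpnmb and Cd9. Of 29 lipid-associated and scar macrophage genes, 17 rose (58.6%, against 6.56% of all genes, median 1.14), and 1 fell without control 3. Trem2, the lipid-sensing receptor of these cells, read 9.90, 9.84 and 9.34 on the control arrays and 13.12, 14.40, 13.79 and 13.70 on the CCl4 arrays, a rise of 4.06 ± 0.36 (adjusted p = 1.14e-05). Spp1, osteopontin, rose by 2.10 ± 0.51, and Cd9 differed by 0.69 ± 0.39 (adjusted p = 0.271). Of 21 Kupffer cell genes, 1 fell (4.76%, against 5.58% of all genes) and the others were not called: Clec4f differed by -0.54, Vsig4 by -0.67, Timd4 by -0.99 and Marco by -1.46. The gene that fell, the haemoglobin scavenger receptor Cd163, was well above background on 1 control array and on no CCl4 array, and its call was lost without control 1, control 3, CCl4 array 1 or CCl4 array 4. The mean log2 level over the 21 genes was 12.22 and 11.99 on controls 1 and 2, 13.46 on control 3 and 12.13 to 12.34 on the CCl4 arrays.

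Lysosome and phagocytosis genes, which digest what macrophages engulf, gave 10 rises among 47 (21.3%, against 6.56% of all genes), and 16 without control 3. Cd63, a lysosomal membrane protein, went from 12.59, 12.66 and 12.57 to 15.95, 16.32, 15.79 and 15.89, by 3.38 ± 0.25 (adjusted p = 2.99e-06). Atp6v0d2, a proton pump subunit, rose by 3.61 ± 0.60, the collagen-digesting protease Ctsk by 3.45 ± 0.50, Lyz2 by 2.69 ± 0.57, Ctsd by 0.92 ± 0.15 and Cd68 by 1.84 ± 0.53. Ctsk varied most among treated livers, from 11.13 on array 1 to 14.18 on array 2. Lamp1, found in lysosomes of every cell, differed by 0.07 ± 0.08.

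AP-1 factors bind TGACTCA and TGAGTCA. The wider pattern TGANTCA occurs in the promoters of several of these genes, in that of Trem2 as TGAATCA, and the 30-base stretches that hold them are printed because genes of both directions share the letters. They come from RefSeq promoters of the GRCm38.p6 build, read 5′ to 3′ on the strand of the gene, with the motif in capitals.
Trem2, chr17:48346371-48346400 (plus strand): cctcacgcccttctccctcctTGAATCAca
Itgax, chr7:128129483-128129512 (plus strand): cccacctcctcTGAGTCAcgctgacaactt
Cd68, chr11:69666176-69666205 (minus strand): gctgaggtgtcTGAGTCAggtttggggtgg
Mmp13, chr9:7272468-7272497 (plus strand): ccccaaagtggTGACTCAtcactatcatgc
Anxa2, chr9:69453577-69453606 (plus strand): tccaagttggaTGAGTCAcccagcagggtg
S100a11, chr3:93520447-93520476 (plus strand): cgggcacagccTGAGTCAggctgaggggcg
Ecm1, chr3:95739615-95739644 (minus strand): gcagcagggacTGAGTCAtggcaggaaaca
Nr1i3, chr1:171213850-171213879 (plus strand): gcagcttttaaTGAGTCAtgaggtcctggc
Trem2, Itgax, Cd68 and Mmp13 are macrophage or protease genes that rose, and Anxa2 and S100a11, below, rose as well, whereas Ecm1 and the nuclear receptor gene Nr1i3 fell. In windows from 250 bases before to 50 after the first listed start, searched on both strands, TGANTCA was found in 7.47% of the 1044 called-higher genes with a promoter, in 8.67% of the 519 called-lower genes, in 5.86% of the 12499 tested genes and in 7.93% of all 27025 promoters. CCAAT was found in 36.2%, 38.3%, 38.2% and 37.9% of the same sets, TTTGAA in 11.5%, 16%, 13% and 18.1%, TATAAA in 10.2%, 14.1%, 9.15% and 14.2%, and TGACNNNGC in 14.2%, 15.2%, 14.3% and 12.5%. A match describes letters in a window and is not a bound site.

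Neutrophil genes gave 4 rises among 28 (14.3%), Clec4d (3.27 ± 0.79), Retnlg (2.84 ± 0.67), Mmp8 (at least 2.27-fold) and Padi4. The count was 12 without control 3, 1 without control 2, 2 without CCl4 array 3 or array 4, and without control 1 it was 0. Myeloperoxidase (Mpo) read 5.88, 4.50 and 12.15 on controls 1 to 3 against 8.45, 9.53, 8.36 and 9.25 after CCl4, and S100a8, a calcium-binding protein of neutrophils, 9.33, 9.70 and 13.16 against 11.80, 12.54, 11.87 and 12.60. Controls 1 and 2 were thus below every treated array and control 3 was within or above them. The differences of 1.47 ± 0.79 for S100a8 and 1.24 ± 0.71 for S100a9 did not pass (adjusted p = 0.248 and 0.286), while Ly6g differed by -0.00 ± 0.26 and Elane by -0.32 ± 0.21. Class II presentation showed the same order. H2-Aa read 6.96, 6.47 and 12.44 on the control arrays and 10.41, 9.87, 9.74 and 9.68 on the CCl4 arrays, and Cd74 12.002, 11.88 and 15.97 on the control arrays and 14.86, 14.55, 13.77 and 13.91 on the CCl4 arrays. In both, control 3 was the highest of the 7 arrays. Of the 26 genes of this list, 3 rose (11.5%, against 6.56% of all genes), Ly6d, Cd83 by 2.27 ± 0.51 and Cd209a by 1.49 ± 0.46, with 1 rise without control 1 or control 2. Siglech fell by 0.62 ± 0.17 on the probe used, while the mean of its probes differed by 0.38.

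T and NK cell genes gave 1 rise (Il7r) among 36 (2.78%, against 6.56% of all genes), or 2 without control 3, and 2 falls (5.56%, against 5.58%). The helper T cell receptor gene Cd4 fell by 1.20 ± 0.31 and Gzmk fell by 0.67 ± 0.15, while Cd3e differed by -0.52 ± 0.29, Nkg7 by -0.28 ± 0.15 and Cd8a by 0.37 ± 0.48. The other Cd4 probe tested differed by -0.19 and was not called. The 2 falls were not called without control 1 or without control 2. B and plasma cell genes gave 1 fall among 18 (5.56%), in Xbp1, which hepatocytes also express, and 4 rises without control 3. The B cell marker Ms4a1 differed by 0.36 ± 0.29 and passed without control 3. In limma's test 0 of 42 interferon-stimulated genes passed in either direction, with 0 higher and 0 lower at an unadjusted p under 0.05. Isg15 differed by -0.53 ± 0.39 and Irf7 by -0.36 ± 0.56, and the mean level of the list was 11.58 and 11.51 on controls 1 and 2, 13.20 on control 3 and 11.80 to 11.95 after CCl4.

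**Figure D4:**
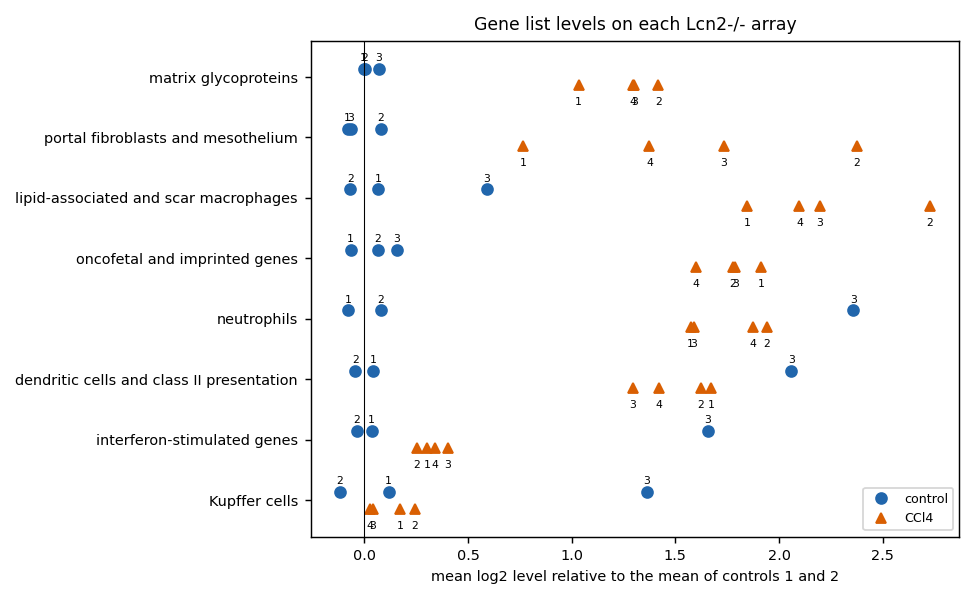
Mean log2 level of 8 gene lists on each array of Lcn2-/- liver, relative to the mean of controls 1 and 2, with blue circles for controls and orange triangles for CCl4 arrays and numbers for the replicate. The groups are separate in the upper 4 lists, while control 3 lies above the CCl4 arrays for neutrophil, class II, interferon and Kupffer cell genes.

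Chemokines, which steer leukocytes, and their receptors gave 7 rises (14.9%) and 1 fall among 47, and 12 rises without control 3. Ccl3 and Ccl4, made by macrophages, rose by 2.21 ± 0.48 and 2.32 ± 0.71, the scavenger receptor Ackr3 by 2.30 ± 0.33 and the endothelial ligand Cx3cl1 by 2.20 ± 0.34. The monocyte attractant Ccl2 differed by 1.06 ± 1.14 (adjusted p = 0.595), its receptor Ccr2 by 1.83 ± 0.83, which passed without control 3, and Cxcl10 by -0.37 ± 1.31. Among 48 cytokine genes and receptors, 5 rose (10.4%, against 6.56% of all genes), among them Osmr by 0.87 ± 0.26 and Tnfsf13b by 1.21 ± 0.36, and Lifr, the receptor of leukemia inhibitory factor, fell by 0.79 ± 0.23. Il1b differed by 0.30 ± 0.87. The 5 rises became 1 to 3 when 1 array other than control 3 was left out. Il6 was not well above background on any of the 7 arrays. Of 30 acute phase genes, 1 rose (3.33%, against 6.56% of all genes), Hamp2, a hepcidin gene, by 3.90 ± 0.52, from 13.01, 11.73 and 13.20 to 16.84, 17.39, 15.59 and 16.37. Under 75th percentile scaling 4 genes of the list fell and its median went from 0.01 to -0.26. Without control 3 or without CCl4 array 4, 2 genes rose. The sequence of the paralogue Hamp is close, and Hamp differed by 0.33 ± 0.14. Saa2 differed by -1.41 ± 0.50 (adjusted p = 0.0804), Orm1 by -0.46 ± 0.22 and Hp by -0.10 ± 0.09.

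Of 31 hepatocyte identity genes, 1 was lower (3.23%, against 5.58% of all genes): Nr1i3, the xenobiotic receptor CAR, fell by 1.03 ± 0.26, and the median was -0.07, or -0.44 with 75th percentile scaling. None of the 4 defining members passed, with Alb, Ttr, Apoa1 and Hnf4a differing by -0.10, -0.02, -0.29 and -0.00. Blood enters the lobule at the portal vein and leaves at the central vein, and hepatocytes near each end express different enzymes. Of 29 pericentral genes, 9 fell (31.0%, against 5.58% of all genes), and of 27 periportal genes 7 rose (25.9%, against 6.56%), while the other 20 of each list were not called.

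Glul, glutamine synthetase of the innermost pericentral hepatocytes, read 15.94, 15.87 and 15.89 on the control arrays and 14.24, 13.73, 14.29 and 13.79 on the CCl4 arrays, and fell by 1.89 ± 0.25 (adjusted p = 0.000283). Oat, ornithine aminotransferase of the same cells, went from 15.71, 15.87 and 16.15 to 14.34, 12.75, 12.59 and 12.61, and fell by 2.84 ± 0.36, with CCl4 array 1 the least changed. Slc1a2 was at 13.41, 13.61 and 13.57 and 9.25, 7.55, 8.49 and 9.40, and Lhpp fell by 2.40 ± 0.25 and Slc13a3 fell by 2.05 ± 0.42. Cyp2e1, which activates CCl4, read 18.90, 18.84 and 18.90 on the control arrays and 18.77, 18.79, 18.70 and 18.39 on the CCl4 arrays. All treated arrays lay just below the controls, but the difference of -0.22 ± 0.11 did not pass (adjusted p = 0.201), near the top of the measured scale. On the periportal side Apoa4 rose by 2.10 ± 0.48, Aldh1b1 by 1.69 ± 0.24 and Hsd17b13 by 0.79 ± 0.12, whereas none of the 4 defining members passed, with Cps1, Ass1, Pck1 and Cyp2f2 differing by 0.39, 0.22, 0.09 and -0.02. On the other Ass1 probe tested the difference was 0.54, and that probe was called higher.

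**Figure D5:**
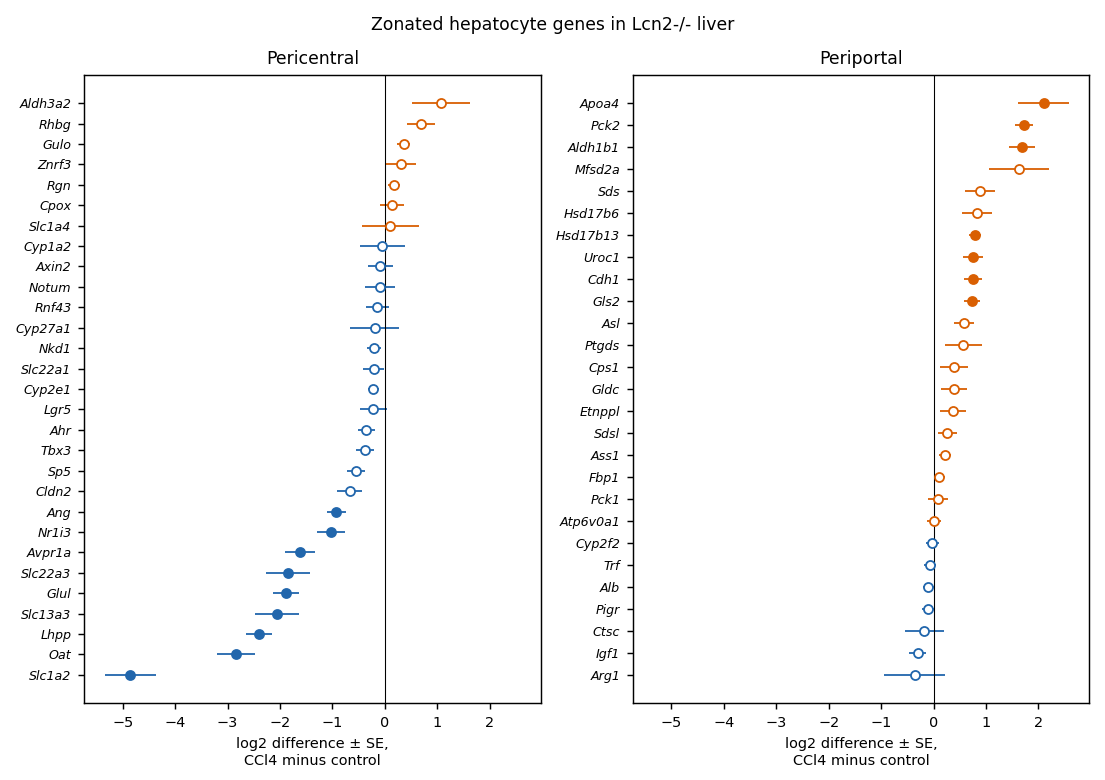
Log2 difference (CCl4 minus control, Lcn2-/- liver) with its SE for the 29 pericentral and 27 periportal genes, ordered within each zone. Filled points passed the adjusted threshold, 9 of them below 0 among pericentral genes and 7 above 0 among periportal genes.

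Cytochrome P450 genes went both ways, with 9 rises (13.4%, against 6.56% of all genes) and 10 falls (14.9%, against 5.58%) among 67, with 15 rises without CCl4 array 4 and 6 falls without control 1 or control 2. Beside Cyp4a14, the oxysterol hydroxylase Cyp39a1 rose by 3.28 ± 0.52, Cyp2c55 by 2.84 ± 0.48 and Cyp3a44 by 2.98 ± 0.63, the drug-metabolising Cyp3a11 rose by 0.62 ± 0.17, and Cyp2g1 fell by 2.17 ± 0.31 and Cyp2c68 by 1.33 ± 0.22. The Cyp2c, Cyp3a and Cyp4a families hold near-identical copies, so a probe's gene is uncertain there. Cyp2b10 lay above the controls on all 4 treated arrays with a difference of 1.57 ± 0.58 that did not pass (adjusted p = 0.0969), and Por, the electron donor of the microsomal enzymes, by 0.90 ± 0.30 (adjusted p = 0.0633). Of 46 conjugating enzymes, 7 rose (15.2%) and 4 fell (8.70%), among them Sult5a1, which fell by 2.03 ± 0.63. Without control 1 there were 3 rises, no fall held without control 1 or control 2, and 2 falls were left without CCl4 array 1, 2 or 3.

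Genes that differ between male and female liver under growth hormone gave 7 rises and 10 falls among 46. These shares were 15.2% and 21.7%, against 6.56% and 5.58% of all genes. Without control 1 or control 2 there were 6 falls. The rises include Sult2a1, Sult2a2 and Cyp3a44 as above. Among the falls, Hsd3b5, a steroid dehydrogenase of male liver, went from 17.57, 17.75 and 17.23 to 11.51, 12.65, 15.37 and 15.86, and fell by 3.67 ± 0.91 (adjusted p = 0.0173). Slco1a1, an organic anion transporter, went from 15.25, 15.45 and 14.61 to 9.53, 10.86, 12.82 and 12.97, Elovl3, a fatty acid elongase, from 13.47, 13.75 and 12.99 to 10.96, 8.66, 10.23 and 10.31, and Cyp7b1 fell by 1.71 ± 0.46. For Hsd3b5 and Slco1a1, CCl4 arrays 1 and 2 lay below arrays 3 and 4. The major urinary protein gene Mup20 differed by -0.33, which passed without control 3, Igf1 by -0.30 and the growth hormone receptor Ghr by 0.01. In bile acid synthesis and transport 2 of 33 genes rose (6.06%, against 6.56%) and 3 fell (9.09%, against 5.58%). The rises were Cyp39a1 and Abcb1a (1.54 ± 0.29), and the falls Slco1a1, Cyp7b1 and Abcc3, which fell by 0.79 ± 0.24. Of the falls, 1 was called without control 1, control 2 or CCl4 array 2. Cyp7a1, the rate-limiting enzyme of bile acid synthesis, differed by 0.73 ± 0.45.

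Of 36 lipogenesis genes, 9 rose (25%) and 1 fell (Elovl3), with 5 rises without control 2. Lpl, which frees fatty acids from circulating triglyceride, rose by 2.70 ± 0.28, the desaturase Scd2 by 1.91 ± 0.52, the fatty acid transporter Cd36 by 1.76 ± 0.47, Acaca by 1.32 ± 0.27 and Fasn by 1.34 ± 0.40, whereas Scd1 and Srebf1 differed by 1.19 and 0.26. Of 48 fatty acid oxidation and ketogenesis genes, 8 rose (16.7%, against 6.56% of all genes), or 5 without control 1, among them Vnn1 by 1.92 ± 0.45, the pyruvate dehydrogenase kinase Pdk4 by 1.65 ± 0.28, and Ehhadh by 1.17 ± 0.22; Ppara differed by -0.27 ± 0.27. In glucose metabolism 10 of 50 rose (20%) and 1 fell, with 5 rises under 75th percentile scaling. The brain form of glycogen phosphorylase, Pygb, rose by 2.29 ± 0.52 and Ldhb by 0.69 ± 0.17. In the urea cycle and amino acid catabolism 12 of 60 rose (20%) and 1 (Oat) fell, with Csad the largest at 1.33 ± 0.31; under that scaling 1 gene rose, without control 1 or control 2 5 rose, and without control 3 or CCl4 array 1 7 rose. Cholesterol synthesis genes gave 0 calls among 31 in limma's test (1 higher and 1 lower at an unadjusted p under 0.05). Respiratory chain genes gave 3 rises among 50, Cyc1 (0.45 ± 0.13), Ndufs1 (0.42 ± 0.12) and Sdhd (0.40 ± 0.11), a share of 6% against 6.56% of all genes. Under 75th percentile scaling the same list gave 0 rises and 3 falls, and it gave 0 rises without control 2, control 3, CCl4 array 3 or CCl4 array 4 and 1 without control 1 or CCl4 array 1. Ribosomal protein genes gave 0 calls among 47 in limma's test (1 higher and 2 lower at an unadjusted p under 0.05) and 3 falls under that scaling.

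Oncofetal and imprinted genes, many of them more active in fetal than in adult liver, gave 16 rises among 27 (59.3%, against 6.56% of all genes, median 1.30). Of the 27, 21 were well above background on all 7 Lcn2-/- arrays, so those 21 were not silent in the control livers. Besides H19 and Ly6d, Dlk1, a membrane ligand of fetal hepatoblasts, read 5.63, 5.35 and 5.71 on the control arrays and 10.48, 9.61, 9.66 and 9.55 on the CCl4 arrays, a rise of 4.26 ± 0.38 (adjusted p = 1.25e-05). Gpc3, glypican 3, went from 7.12, 7.66 and 6.96 to 12.10, 12.06, 11.60 and 10.21, by 4.25 ± 0.49, with CCl4 array 4 lowest of the treated. Afp, alpha-fetoprotein, went from 9.38, 8.93 and 10.21 to 12.45, 12.19, 12.87 and 11.54, by 2.76 ± 0.71 (adjusted p = 0.0208). No treated array reached into the control range for any of the 3.

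DNA replication genes gave 0 calls among 42 in limma's test, and 1 rise without control 3, with 2 higher and 2 lower at an unadjusted p under 0.05. Pcna, the replication clamp, differed by -0.01 ± 0.17, Mcm2 by -0.10 ± 0.34 and Rrm2 by 0.11 ± 0.49. Of 41 mitosis genes 3 rose, Cdk1 by 1.51 ± 0.42, Kif11 at least 1.69-fold and Spc25 by 0.88 ± 0.20, a share of 7.32% against 6.56% of all genes. Of the 41 differences 39 were above 0 (median 0.81), against 11591 of 24357 over all genes. Mki67, a marker of cycling cells, read 8.68, 8.66 and 10.55 on the control arrays and 10.69, 10.23, 10.38 and 10.44 on the CCl4 arrays, with control 3 inside the treated range and a difference of 1.14 ± 0.61 (adjusted p = 0.246). Without control 3, 8 mitosis genes rose, and without control 1 or control 2, 1 did. CCAAT and TTTGAA, letters of the NF-Y box and of the cell cycle homology region, were each found in the promoters of 72.7% of the 33 mitosis genes that have one. For the 35 DNA replication genes with a promoter the shares were 57.1% and 14.3%, and for 28 hepatocyte identity genes 57.1% and 7.14%. Over the 12499 tested genes with a promoter they were 38.2% and 13%.

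Among stress responses, 5 of 27 p53 target genes rose (18.5%, against 6.56% of all genes), Phlda3 by 2.72 ± 0.48, the cell cycle inhibitor Cdkn1a by 2.65 ± 0.78, Tnfrsf10b, Btg2 and Perp, while 1 other member fell without control 3 and Mdm2 and Ccng1 differed by 0.07 and 0.35. Without control 1, control 2 or CCl4 array 1 the count was 2, and without CCl4 array 3 or 4 it was 3. The other Cdkn1a probe tested differed by 1.07 and was not called. Of 25 immediate early genes 4 rose (16%), Egr2 by 3.41 ± 0.80, Atf3 by 2.68 ± 0.66, Btg2 by 1.25 ± 0.35 and Fosl2 by 0.85 ± 0.24, whereas none of the 4 defining members passed, with Fos, Jun, Egr1 and Myc differing by 0.35, 0.82, 0.13 and 0.02. Without control 1 the count was 0, without control 2 it was 1 and without CCl4 array 4 it was 2. Of 41 Nrf2 target and glutathione genes, 4 rose (9.76%, against 6.56% of all genes) and 1 fell (2.44%, against 5.58%). Gpx3, the secreted glutathione peroxidase, rose by 2.53 ± 0.27 and Gpx7 by 1.73 ± 0.40, but none of the 4 defining members passed, with Nqo1, Gclc, Txnrd1 and Hmox1 differing by 0.06, -0.13, -0.20 and -0.48. The 4 rises became 1 without control 1 and 2 without CCl4 array 1. Of 29 ER stress genes 1 rose, Atf3, and 1 fell (3.45% each way, against 6.56% and 5.58% of all genes), Xbp1 by 0.57 ± 0.17; the chaperone gene Hspa5 and Ddit3 differed by -0.18 and 0.32. Among S100 proteins and annexins 7 of 24 rose (29.2%), S100g at least 3.84-fold, Anxa1 by 1.94 ± 0.42, Anxa2 by 1.35 ± 0.34 and S100a11 by 1.81 ± 0.35, with 4 rises without control 1 or control 2. Cytoskeletal genes gave 5 rises among 47 (10.6%, against 6.56% of all genes), 2 without control 1 and 3 without control 2, with vimentin (Vim) at 1.81 ± 0.45 and Capg at 1.88 ± 0.45.

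Of 39 complement and coagulation genes 2 (5.13%, against 5.58% of all genes) were lower, C8b of the membrane attack complex, which fell by 1.03 ± 0.25, and Masp1, which fell by 0.62 ± 0.12. There was 1 fall without control 1 or control 2, and there were 4 without CCl4 array 4. Under 75th percentile scaling 6 of the 39 fell, beside 2055 of all 24357 genes. Of 37 iron and heme genes 3 rose (8.11%, against 6.56% of all genes), Hamp2, the ferroxidase Heph by 1.59 ± 0.24 and Tmprss6 by 0.43 ± 0.11, of which Tmprss6 was lost without control 3; 75th percentile scaling gave 2 rises and 2 falls. Of 23 clock genes 1 rose and 1 fell (4.35% each way, against 6.56% and 5.58% of all genes). Lonrf3 rose by 0.74 ± 0.22, but was not called without control 3, and the repressor Bhlhe41 fell by 1.54 ± 0.29. Of 25 genes of CCl4 activation and lipid peroxidation 2 rose (8%, against 6.56% of all genes), the lipoxygenase Alox5 by 1.53 ± 0.39 and the epoxide hydrolase Ephx1 by 0.47 ± 0.13. Without control 1 neither of the 2 was called. Alox5 was also not called without control 2 or CCl4 array 2, and Ephx1 without control 3 or without CCl4 array 1 or 4. Under 75th percentile scaling this list gave 1 rise and 3 falls, and its median turned from 0.16 to -0.02. The same scaling gave 2 rises and 2 falls for the Nrf2 list, 2 and 2 for cytokines and receptors, 4 and 5 for conjugating enzymes, 3 and 2 for neutrophil genes and 7 and 15 for sex-dependent genes.

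Markers of tissues that do not belong in liver were checked as well. Of 17 erythroid, pancreas, adipose and muscle genes tested 2 rose (11.8%, against 6.56% of all genes), the muscle genes Myl1, well above background on 2 CCl4 arrays, and Tnni2 by 1.43 ± 0.42. The defining members Hba-a1, Alas2 and Cela1 differed by 0.31, -0.14 and 0.17, and Acta1 was well above background on 1 of 7 arrays. Without control 1, control 2 or any 1 of the CCl4 arrays, 1 of the 2 rises was called. Their part in the results was not tested.

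The test of whether the response differs between genotypes, the interaction in the same fit, called 13 of 24357 genes (0.0534%), against 807 at an unadjusted p under 0.05. Of the 13, Olfr1317, Ceacam12, Riiad1, Nxph2, EL606508 and 2 unnamed transcribed regions were read from rows 3 to 8 at the top of the array. Gpat3, a glycerol-3-phosphate acyltransferase of triglyceride synthesis, was at 9.82, 10.44 and 9.92 on the control arrays and 11.78, 11.78, 11.87 and 11.61 on the CCl4 arrays, a rise of 1.70 ± 0.13, against -0.19 ± 0.12 in WT livers, an interaction of 1.89 ± 0.18 (adjusted p = 0.000314). Slc35f2, a solute transporter gene, was not well above background on the controls and read 8.52, 8.18, 8.42 and 8.35 after CCl4, at least 7.2-fold higher, against a measured 2.25 ± 0.17 in WT. Its fitted interaction of 1.88 ± 0.26 (adjusted p = 0.0143) uses control values at the background and is not an exact size. For the other named members, Themis and Tm4sf20 were not well above background on any Lcn2-/- array, and Wfikkn2 differed by 0.59 ± 0.18 in Lcn2-/- and by 2.09 ± 0.16 in WT (fitted interaction -1.50 ± 0.25, adjusted p = 0.0485), where no WT control array was well above background. In WT livers 1961 genes (8.05%) were called higher and 2103 (8.63%) lower. Of the 2958 genes called in Lcn2-/- livers, 2109 were also called in the same direction in WT livers. For Col1a1 the interaction was 0.72 ± 0.68 and for Glul 0.65 ± 0.33, each with an adjusted p of 1. A p that misses the threshold does not show that the genotypes respond alike.

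With slide as a block, 116 of the 176 called values named above, interactions included, no longer passed. Genes that kept an adjusted p under 0.05 included Col1a1 (4.17, adjusted p = 0.0433), Mmp2 (4.56, adjusted p = 0.00069), Cd63, Gpnmb, H19, Dlk1, Gpc3, Afp, Irx1, Susd4, Slc1a2 and Glul (-2.59, adjusted p = 0.00537). Mmp12, Itgax, Ctsk, Thbs4, Hsd3b5 and Moxd1 did not (adjusted p = 0.0668, 0.283, 0.113, 0.268, 0.167 and 0.252), with differences of 5.69, 3.49, 3.06, 3.88, -4.80 and -3.85 in that fit. In that fit 16 of 51 matrix glycoproteins rose, 4 of 29 lipid-associated and scar macrophage genes rose, 3 of 29 pericentral genes fell and 7 of 27 oncofetal genes rose, against 337 higher and 89 lower genes in all. Collagen processing enzymes gave 4 rises there, matrix proteases and inhibitors 5, and stellate cell genes 5 rises and 0 falls. Portal fibroblast genes gave 4 rises, TGF-beta and PDGF genes 6 and glucose metabolism genes 3. Mitosis genes gave 5 rises among 41 there, against 3 without the block. Cytochrome P450 genes gave 3 rises and 5 falls, and sex-dependent genes 1 rise and 3 falls. No rise passed in that fit among the endothelin and vasoactive, urea cycle, p53 target, immediate early, neutrophil, cytokine and endothelial lists. The same held for the respiratory chain, CCl4 activation, acute phase, T and NK cell, ER stress, clock and erythroid, pancreas, adipose and muscle lists. Lists with 1 rise each were lysosome, fatty acid oxidation, chemokine, periportal, conjugating enzyme and S100 and annexin. Integrins, proteoglycans, class II presentation, cholangiocytes, bile acid, iron and cytoskeletal genes also gave 1 rise each.

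Of the 173 called differences printed above, 55 lost the adjusted threshold when 1 Lcn2-/- array was left out. Both without control 1 and without control 2 this held for Abcc3, Afp, Alox5, Anxa2, Atf3, Btg2, C8b, Ccl4, Cd209a, Cd36, Cd4, Cd68, Cd83, Cdk1, Cdkn1a, Clec4d, Cyp7b1, Des, Fasn, Fosl2, Gzmk, Hsd3b5, Itga3, Kif11, Lifr, Lyve1, Mmp8, Ndufs1, Nr1i3, Osmr, P3h1, Scd2, Sdhd, Serpine2, Siglech, Sult5a1, Tgfb2, Tmprss6, Tnfsf13b, Tnni2, Vim and Xbp1. Without control 1 it also held for Capg, Cyp3a11, Egr2, Ephx1, Gpx7, Lonrf3, Retnlg and Vnn1, and without control 2 for Cyc1, Pygb, Reln and Spp1. Without control 3 the call was lost for Cd209a, Cyc1, Cyp3a11, Ephx1, Ldhb, Lonrf3, Ndufs1, Sdhd, Tmprss6 and Xbp1. Leaving out CCl4 array 1, 2, 3 or 4 removed 24, 17, 21 and 23 of the calls, in each of the 4 cases those of Ccl4, Cd209a, Cd68, Cdkn1a, Sult5a1 and Tnni2. The gene lists mark 200 tested genes as defining, of which 49 rose, 6 fell and 145 were not called. Of those not called, 80 are given by value above and the other 65 ranged from -0.81 to 1.93. The sign of 75 of the 145 turned under at least 1 alternative setting, as did that of 1 of the 55 called, Siglech.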

How the data were processed

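RNA from 16 liver samples was hybridised to 1-colour Agilent arrays, which the submitters scanned and read with Feature Extraction 10.7.3.1. The deposited scanner files hold linear intensity values, and the authors' own table, used only as an alternative, holds quantile-normalized log2 values. Groups were taken from the sample titles. Control spots and outlier-marked spots were left out, log2 processed signals were quantile normalized over the 16 arrays, spots of a probe were averaged, and a probe was tested if 3 or more arrays held it well above background, 1 probe per gene by highest mean (24357 genes). Of these, 61.0% were named through RefSeq and the others keep the name of the array design, with mm9 positions. R 4.3.3 and limma 3.58.1 fitted 4 group means, with Benjamini-Hochberg adjustment at 0.05. Called genes had 949 other probes tested, of which 770 (81.1%) showed the same sign. Of the 949, 313 were called the same way and 10 the opposite way.

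Where every array of a group was dim for a gene, its fold is a lower bound. The SE and p of such a gene use the spread shared by the 4 groups, which a group at the floor makes smaller. The 75th percentile scaling, normexp, the authors' table, filters, probe averaging, the 7 arrays alone, array weights, slide and replicate blocks, the top 20 rows and each array left out were alternatives. On simulated data of 24357 genes, the comparison recovered 48% of 100 genes changed by 1 on the log2 scale and 87% of 100 changed by 2. Only these genes were changed, the noise was normal and drawn separately for each gene, and no slide effect was added. In the data 12.1% of the genes were called, so these shares need not hold there.

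Named genes are Lcn2, the 15 called genes with the largest rise and the 15 with the largest fall (named in RefSeq, well above background on every array of the brighter group, with no overlap), in each list the defining members and the 4 called members with the largest rise and fall, and genes past the interaction threshold. In a departure from that rule, 65 defining members that were not called are given only by count and range, and not every member of the 4 largest rises and falls of each list is printed. The members and lists were chosen with earlier results of these data known. A few genes that the rule names are not reported here.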

Additional observations from a re-analysis of the deposited data

Results flagged for a closer look

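In 255 groups of 4 CCl4 arrays, 1 group per gene printed, 13 held an array whose gap to the nearest other took up more of the group's range than Dixon's 95% critical value for 4 samples, where chance gives about 1 in 20. Abcc3 read 13.71 on CCl4 array 4, with the other 3 arrays between 14.55 and 14.67. Col5a1 read 11.85 on CCl4 array 2, with the other 3 arrays between 11.59 and 11.61. Dlk1 read 10.48 on CCl4 array 1, with the other 3 arrays between 9.55 and 9.66. Gdf10 read 11.38 on CCl4 array 4, with the other 3 arrays between 11.61 and 11.65. Lamp1 read 18.06 on CCl4 array 3, with the other 3 arrays between 18.16 and 18.17. Mdm2 read 13.7 on CCl4 array 2, with the other 3 arrays between 13.85 and 13.86. Myc read 9.775 on CCl4 array 1, with the other 3 arrays between 11.47 and 11.76. Oat read 14.34 on CCl4 array 1, with the other 3 arrays between 12.59 and 12.75. Pygb read 9.535 on CCl4 array 4, with the other 3 arrays between 10.33 and 10.42. S100g read 7.921 on CCl4 array 2, with the other 3 arrays between 7.29 and 7.33. Spc25 read 13.54 on CCl4 array 2, with the other 3 arrays between 13.65 and 13.66. Tas2r136 read 7.059 on CCl4 array 3, with the other 3 arrays between 2.92 and 3.15. Wif1 read 4.852 on CCl4 array 2, with the other 3 arrays between 2.88 and 2.88. 

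The interaction term of the limma fit, the Lcn2-/- response minus the WT response, passed an adjusted p of 0.05 for 13 genes. For 11 of them at least 1 of the 4 groups had no array well above background, so the fitted values below depend on signals at the background and are not sizes of a difference; the exceptions are Gpat3 and EL606508. For Ceacam12 the interaction was -4.344. The other values, on the same log2 scale of the Lcn2-/- response minus the WT response, were -3.72 for EL606508, 1.89 for Gpat3, -3.549 for Nxph2, -5.127 for Olfr1317, -3.924 for Riiad1, 1.88 for Slc35f2, 2.403 for Themis, 2.235 for Tm4sf20, -1.501 for Wfikkn2, -3.764 for a transcribed region on chromosome 15, 3.541 for a transcribed region on chromosome 2 and -5.516 for a transcribed region on chromosome 5. The interaction called 3 genes in the values the authors deposited, and 3 without the top 20 array rows. The part of the raised dim spots in these differences was not tested.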

How the results depend on the processing

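The 2958 calls (1598 higher and 1360 lower) became 1801 genes (1064 higher and 737 lower) in a fit of the 7 Lcn2-/- arrays alone after their own normalization and 1781 genes (1052 higher and 729 lower) with the 16-array values, 6975 genes (3235 higher and 3740 lower) with array weights and 426 genes (337 higher and 89 lower) with slide as a block. Scaling to the 75th percentile gave 2055 lower genes. Leaving out 1 array at a time gave 1671 to 3204 calls, 1039 to 1764 higher and 607 to 1450 lower. The 1601 calls of at least 2-fold became 886 after normexp background correction, 934 where the signal had to be well above background on all 7 arrays, 2642 with array weights and 418 with the slide block. The 13 interaction calls became 7 after normexp, 3 in the authors' deposited log2 table, 1 under the stricter filter, 6 with the replicate block, 3 without the top 20 rows, and 4 to 13 with 1 array left out. The cause was not tested, other than that the smaller fits use fewer samples and the stricter filter fewer genes. Replicate numbers repeat between groups, and in the Lcn2-/- groups they are the column of the array on its slide. Same-numbered Lcn2-/- arrays deviated together with correlations of 0.00817, 0.0189 and 0.0103, so the numbers were not taken as pairs, and the replicate block gave 2965 calls (1568 higher and 1397 lower).

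Differences changed sign, apart from Siglech all for genes that were not called, as follows. With the slide block, Apoa1 differed by 0.28, Ccl2 by -0.75, Ccng1 by -0.06561, Cd74 by -0.65, Cela1 by -1.24, Col18a1 by -0.07136, Fos by -0.34, Ghr by -0.22, Hamp by -0.10, Hba-a1 by -1.23, Hnf4a by 0.05881, Il1b by -1.04, Lcn2 by -0.08855, Ly6g by 0.32, Mcm2 by 0.90, Myc by -0.06876, Pck1 by -0.30, Pcna by 0.45, Thy1 by -0.01631, Ttr by 0.08468 and Txnrd1 by 0.02027. With 75th percentile scaling, Ass1 differed by -0.22, Cd8a by -0.14, Col18a1 by -0.20, Ghr by -0.17, Hamp by -0.01018, Hba-a1 by -0.06353, Lamp1 by -0.36 and Pck1 by -0.32. With the replicate block, Cela1 differed by -0.001562, Cyp2f2 by 0.01987, Ghr by -0.02424, Hnf4a by 0.002593, Mcm2 by 0.04766 and Pcna by 0.01169. With the mean of all probes, Col18a1 differed by -0.01542, Ghr by -0.29, Nkg7 by 0.34 and Siglech by 0.38. With array weights, Cxcl10 differed by 0.66, Cyp2f2 by 0.006107, Egr1 by -0.27, Ghr by -0.06385, Hnf4a by 0.02405, Irf7 by 0.22, Ly6g by 0.07923, Myc by -0.35 and Pcna by 0.05377. With normexp, Cyp2f2 differed by 0.0003935, Hnf4a by 0.04153, Nqo1 by -0.04688 and Ttr by 0.02391. With the authors' table, Hnf4a differed by 0.03931, Myc by -0.001636, Nqo1 by -0.03087, Pcna by 0.01251 and Ttr by 0.005739. With the 7 arrays normalized alone, Hnf4a differed by 0.002147. With 1 array left out the differences that changed sign ranged as follows: Cela1 -0.01998 to 0.29, Col18a1 -0.04404 to 0.10, Cxcl10 -1.09 to 0.82, Cyp2f2 -0.05932 to 0.06352, Egr1 -0.009865 to 0.38, Fos -0.04097 to 0.99, Gclc -0.26 to 0.05123, Ghr -0.10 to 0.10, Hnf4a -0.04263 to 0.04548, Il1b -0.21 to 1.16, Irf7 -0.94 to 0.38, Lox -1.02 to 0.87, Ly6g -0.14 to 0.23, Marco -2.38 to 0.09294, Mcm2 -0.26 to 0.15, Mpo -0.10 to 3.72, Myc -0.53 to 0.49, Nqo1 -0.22 to 0.22, Pcna -0.12 to 0.13, Rrm2 -0.10 to 0.46, Srebf1 -0.08732 to 0.57, Stab2 -0.18 to 0.04569, Ttr -0.06293 to 0.01281. Of the 260 values printed for single genes, 116 called ones kept their direction without passing under the slide block, the largest such number of any setting. Spots not well above background, at or near the floor of the scale, limit the size of a difference to a bound.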
